A study of Mus musculus with 4 samples.

Results

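Tspan7, Hmcn1, Mid1 and Ntng2 are 4 of the 29835 genes measured by single-cell RNA sequencing of cells from mouse ascites. The 4 genes were chosen by their readout: earlier work on the same libraries had placed them among the genes that were higher in tumour cells after BTYNB, both without and with anti-PD-1. Their values in those 2 contrasts are therefore a description, and no test or support is drawn from them. Mice of the C57BL/6 strain carried ID8-Trp53-/- cells in the peritoneal cavity, a mouse ovarian surface epithelial line without Trp53 that all 4 groups share. The labels call the tissue a xenograft, although line and host are both mouse. After 7 days of engraftment, the control group received DMSO and an IgG2a isotype antibody, and the BTYNB group received BTYNB with the isotype antibody. The anti-PD-1 group, called PD1 as in its label, received DMSO with the PD-1 blocking clone RMP1-14, and the combination group received BTYNB with that blocking antibody. BTYNB, given at 50 mg/kg per the labels, is an inhibitor of the RNA-binding protein Igf2bp1, and the antibodies were labelled at 100 ng per dose. Other amounts stand in the methods of the study, and the files do not settle which were used. Treatment ended at about 3 mL of ascites. The ascites cells of the animals in a group were pooled, so each group is 1 library and the spread between animals was not measured.

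The 4 genes encode proteins of different kinds, 3 of them at or outside the cell surface. Tspan7 is a tetraspanin, a membrane protein with several membrane-spanning segments that organises receptors and integrins into surface patches. Hmcn1 encodes hemicentin-1, a very large extracellular matrix protein of the fibulin family that is deposited at cell junctions and basement membranes. Ntng2 encodes netrin-G2, which is held at the membrane by a lipid anchor and binds an Lrrc4-family partner on neighbouring cells, mainly known from neurons. Mid1 encodes midline 1, a ubiquitin ligase on microtubules that acts on the catalytic subunit of the phosphatase PP2A. ID8 cells keep features of the surface mesothelium of the ovary and peritoneum, a lining that makes keratins, Wt1 and matrix proteins.

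The promoter of each gene is shown because the 4 genes were high in the same 2 libraries, and it lets their start regions be compared. The sequences are RefSeq windows on GRCm38.p6 from 250 bases before to 50 bases after an annotated start, read along the gene's strand. All 4 genes were matched, Mid1 with 3 alternative starts. Capitals mark matches to a GC box (GGGCGG) or a CCAAT box (CCAAT) on either strand. The windows lie at chrX:10484866-10485165 on the plus strand for Tspan7, chr1:150993386-150993685 on the minus strand for Hmcn1, chrX:169879369-169879668 on the plus strand for the Mid1 start with a match, and chr2:29248050-29248349 on the minus strand for Ntng2.
Tspan7: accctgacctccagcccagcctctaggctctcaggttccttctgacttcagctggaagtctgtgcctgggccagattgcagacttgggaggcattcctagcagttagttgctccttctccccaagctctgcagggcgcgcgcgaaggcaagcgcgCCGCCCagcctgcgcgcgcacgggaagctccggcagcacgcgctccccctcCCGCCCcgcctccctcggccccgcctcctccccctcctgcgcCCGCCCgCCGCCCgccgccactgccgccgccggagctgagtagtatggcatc
Hmcn1: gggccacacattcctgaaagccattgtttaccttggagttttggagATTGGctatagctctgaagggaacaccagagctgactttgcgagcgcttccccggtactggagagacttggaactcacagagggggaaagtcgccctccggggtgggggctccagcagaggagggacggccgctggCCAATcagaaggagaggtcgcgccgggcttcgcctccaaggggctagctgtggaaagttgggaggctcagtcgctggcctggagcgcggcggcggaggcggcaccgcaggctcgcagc
Mid1: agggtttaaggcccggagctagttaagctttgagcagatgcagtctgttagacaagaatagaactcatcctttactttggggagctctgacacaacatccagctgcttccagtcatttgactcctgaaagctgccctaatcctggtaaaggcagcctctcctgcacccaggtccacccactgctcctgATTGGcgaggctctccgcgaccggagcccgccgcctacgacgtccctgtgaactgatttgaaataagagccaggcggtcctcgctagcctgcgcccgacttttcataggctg
Ntng2: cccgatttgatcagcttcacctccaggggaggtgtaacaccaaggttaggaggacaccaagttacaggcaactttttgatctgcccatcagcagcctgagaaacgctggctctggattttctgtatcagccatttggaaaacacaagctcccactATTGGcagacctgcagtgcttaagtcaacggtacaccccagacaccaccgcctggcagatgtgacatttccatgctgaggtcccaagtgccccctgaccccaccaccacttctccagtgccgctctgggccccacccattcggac

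The windows had little in common. The Tspan7 window held 4 GC boxes, 27 CpG pairs and 70.3% G and C, against medians of 7.00 CpG pairs and 52.7% over 32851 windows of the same 300 bases. The Hmcn1 window held 2 CCAAT boxes, 19 CpG pairs and 63.3% G and C. The windows of Ntng2 and of the Mid1 start shown held 1 CCAAT box each and 55.0% G and C. The other 2 Mid1 windows, with 43.7% and 53.7% G and C, held neither box. GC boxes were found in 35.7% and CCAAT boxes in 37.4% of all windows. None of the 6 windows matched AP-1 (TGANTCA, 7.81% of all windows), NF-kB (GGANTTTCC, 1.25%), an E-box (CACGTG, 7.15%), STAT (TTCNNNGAA, 8.30%) or a TATA box (TATAAA, 13.6%). A match describes letters only, and the absence of one says nothing of the factor.

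The libraries held 7858 to 19247 cells and 78603888 to 114600397 unique molecular identifiers (UMIs), the counted transcript molecules. Tumour cells were taken as cells with at least 5 UMIs of Krt7, Krt8, Krt18, Krt19 and Wt1 together, 0 UMIs of Ptprc, the pan-leukocyte gene, and at least as many UMIs as the smallest deposited combination cell. This gave 6829 control, 2812 BTYNB, 8782 PD1 and 4369 combination cells. Wt1 lay between 634 and 909 CPM (UMIs of a gene scaled to the same total in each library) in them. Epcam lay between 0.0679 and 0.219 CPM. Of 7 endothelial markers only Cldn5 had 0 UMIs in every library, as a gene absent from the matrices would also have. Pecam1 lay between 21.4 and 36.4 CPM. The BTYNB library stood apart in 2 ways. Its matrix held cells down to 869 UMIs, against 3533 or more in the others, and its gated tumour cells were the deepest, with a median of 18310 UMIs against 9987 in control, 7870 in PD1 and 11503 in combination. Libraries shared 0 to 4 cell numbers per pair, and at most 1 among tumour cells. Intervals are exact at 95%, Poisson for levels and binomial for shares and ratios, while those of differences between ratios are normal approximations. They cover counting error only, since no group had a replicate library. Igf2bp1 itself lay at 8.56 CPM in control, 9.15 in BTYNB, 11.6 in PD1 and 11.5 in combination tumour cells.

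Among the surface and matrix genes, Hmcn1 was at 29.1 CPM in control tumour cells (interval 27.9 to 30.3), 61.8 in BTYNB (59.7 to 63.9), 21.7 in PD1 (20.7 to 22.8) and 70.8 in combination (68.6 to 73.0). The intervals of all 4 libraries were separate, with both BTYNB-treated libraries above both others. The level was 2.12-fold higher in BTYNB than in control (2.01 to 2.24) and 3.25-fold higher in combination than in PD1 (3.07 to 3.45). To compare shares of cells, each tumour cell was thinned to 5000 UMIs. A UMI of Hmcn1 was then found in 12.9% of control, 23.9% of BTYNB, 10.1% of PD1 and 24.1% of combination cells. Without thinning the shares were 20.9%, 49.5%, 13.9% and 39.8%. More cells had the transcript, and cells with several copies were also more frequent: 158 control, 480 BTYNB, 69 PD1 and 515 combination cells had 3 or more UMIs, before thinning and at unequal depth.

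Ntng2, the netrin-G adhesion gene, was at 5.92 CPM in control (5.38 to 6.51), 14.0 in BTYNB (13.0 to 15.0), 5.07 in PD1 (4.56 to 5.61) and 12.4 in combination (11.5 to 13.4). The BTYNB-treated libraries were again above both others, and within each pair the neighbouring intervals overlapped. The folds were 2.36 without anti-PD-1 (2.10 to 2.66) and 2.45 with it (2.16 to 2.79). After thinning, 3.29% of control, 6.72% of BTYNB, 2.45% of PD1 and 5.95% of combination cells had a UMI. Unthinned shares were 5.59%, 20%, 3.88% and 12.5%.

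Tspan7, the tetraspanin gene, had few UMIs: 172 in control, 307 in BTYNB, 98 in PD1 and 273 in combination tumour cells. This came to 2.34 CPM (2 to 2.71), 5.51 (4.91 to 6.16), 1.34 (1.09 to 1.64) and 4.89 (4.33 to 5.51). The order was PD1, control, combination and BTYNB, and only the last 2 had overlapping intervals. These intervals treat UMIs as independent, although the 307 in BTYNB came from 114 cells, with up to 12 in a cell. The folds were 2.36 without anti-PD-1 (1.95 to 2.86) and 3.65 with it (2.88 to 4.64). A UMI was found in 1.11% of thinned control, 1.99% of BTYNB, 0.581% of PD1 and 2.13% of combination cells. Unthinned, the shares were 1.65%, 4.05%, 0.763% and 3.11%.

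Mid1, the microtubule-bound ubiquitin ligase, was at 13.9 CPM in control (13.0 to 14.7), 33.6 in BTYNB (32.1 to 35.2), 12.4 in PD1 (11.6 to 13.2) and 30.9 in combination (29.4 to 32.3). The pattern was that of Ntng2, with 2 libraries high and 2 low. The folds were 2.43 without anti-PD-1 (2.25 to 2.62) and 2.49 with it (2.29 to 2.70). In thinned cells the shares with a UMI were 6.81%, 13.9%, 5.89% and 13.0% in the same order of libraries. Without thinning they were 12.1%, 34.7%, 8.65% and 24.9%.

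**Figure D1:**
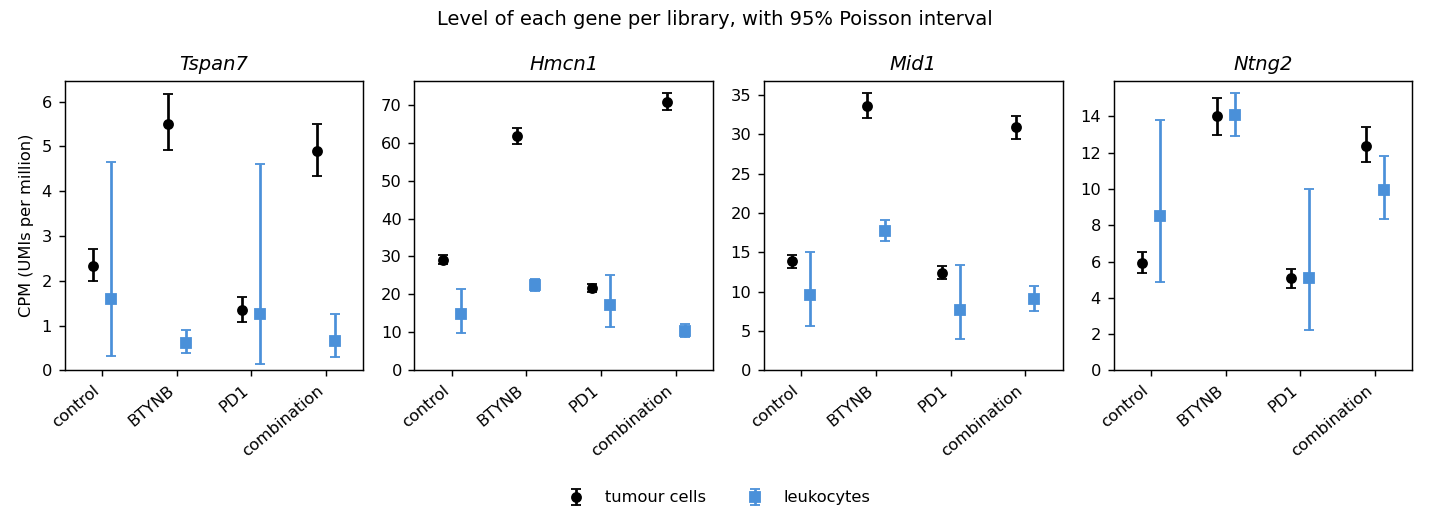
Level of each gene in CPM in tumour cells (black circles) and leukocytes (blue squares) of the 4 libraries, 1 pooled library per group. Bars are exact 95% Poisson intervals. In tumour cells the BTYNB and combination points lie above the control and PD1 points for all 4 genes, and the leukocyte levels of Ntng2, 5.10 to 14.1 CPM, lie near its tumour levels.

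For the background over all genes, log2 ratios of CPM + 1 were computed for the 13037 genes that reached 100 UMIs in 1 library or more. On this scale 3 of the 4 genes were at least 2-fold higher in BTYNB than in control, and so were 0.291% of all genes. All 4 were at least 2-fold higher in combination than in PD1, beside 0.951% of all genes. Those at least 2-fold higher in both contrasts were Mid1, Ntng2 and Hmcn1, beside 0.130% of all genes, 17 in number. None of the 4 was at least 2-fold lower, beside 0.606% and 2.64% of all genes. Since these contrasts chose the genes, nothing is read from the counts. By the smaller of the 2 ratios, Mid1 ranked 6 (1.22), Ntng2 10 (1.11), Hmcn1 13 (1.06) and Tspan7 21 (0.96), with Tspan7 just under 2-fold on this scale because 1 CPM was added to low levels. Just above Tspan7 was Ccl2, a monocyte-attracting chemokine (0.97), and just below it were Cytip and Bach2, both at 0.96. The plot of all genes shows the 4 at the upper right edge of the cloud.

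**Figure D2:**
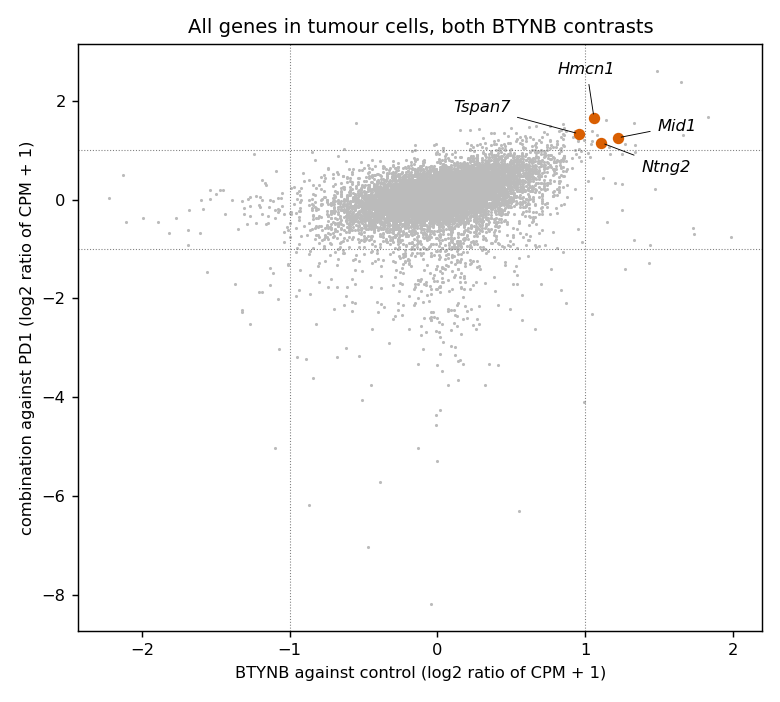
Log2 ratio of CPM + 1 in tumour cells for BTYNB against control (x axis) and combination against PD1 (y axis), for 13037 genes (grey) with Tspan7, Hmcn1, Mid1 and Ntng2 in orange. Dotted lines mark 2-fold. The 4 genes lie between 0.96 and 1.22 on x and between 1.15 and 1.66 on y.

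Other genes at the top of this ranking, named after their values were seen, included markers of other cell types. B cell genes were Ighm (1.56 CPM in control, 7.05 in BTYNB, 0.726 in PD1 and 8.03 in combination), Igkc (5.57, 17.5, 1.78 and 15.9) and Ebf1 (0.652, 3.14, 0.342 and 2.92). The fibrillar collagen genes Col1a1 (27.1, 57.0, 19.9 and 53.2 CPM) and Col1a2 (25.9, 58.2, 16.0 and 50.8) stood there too. Over whole marker lists, the summed leukocyte level in the tumour gate was 54.5, 69.4, 101 and 136 CPM in the same order, with 9 of 10 markers found and Ptprc at 0 by the gate. The fibroblast list, with 7 of 7 found, summed to 346, 437, 246 and 365 CPM, with Lum at no more than 0.110 CPM. The endothelial list, with 6 of 7 found, summed to 38.3, 24.6, 27.2 and 23.8 CPM, and the erythroid list, with 5 of 5, to 19.0, 72.6, 45.9 and 26.5 CPM. The fibroblast and leukocyte sums were higher in the BTYNB-treated library of each pair. The endothelial sum was lower there and was nearly all Pecam1 (36.4, 22, 25.2 and 21.4 CPM), while Cdh5 was at 0.761, 1.10, 1.01 and 0.985 CPM. Without tumour cells that held any UMI of Ighm, Igkc or Cd79a, an alternative chosen after the data were seen, the 4 log2 ratios ranged from 1.07 to 1.49 without anti-PD-1 and from 1.34 to 1.92 with it.

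The remaining contrasts share libraries with the first 2, so their values are given side by side. PD1 against control gave log2 ratios of CPM of -0.80 for Tspan7 (-1.17 to -0.43), -0.42 for Hmcn1 (-0.51 to -0.32), -0.23 for Ntng2 (-0.43 to -0.02) and -0.16 for Mid1 (-0.29 to -0.03). All 4 were thus lower in the PD1 library, the first 2 by more. Combination against BTYNB gave 0.20 for Hmcn1 (0.13 to 0.26), -0.12 for Mid1 (-0.22 to -0.03), -0.17 for Ntng2 (-0.32 to -0.02) and -0.17 for Tspan7 (-0.41 to 0.07). The BTYNB log2 ratio was 0.62 larger with anti-PD-1 than without it for Hmcn1 (0.50 to 0.73) and 0.63 larger for Tspan7 (0.20 to 1.06). For Mid1 and Ntng2 the differences were 0.04 (-0.12 to 0.20) and 0.06 (-0.19 to 0.30), with intervals that include 0. Part of the PD1 library were tumour cells with at least 5 UMIs of Cd24a, a sialylated surface protein: 14.4% of cells there, and 0.849% in control, 2.03% in BTYNB and 1.03% in combination. In these 1262 PD1 cells Tspan7 had 0 UMIs, which allows up to 0.235 CPM, Hmcn1 was at 3.37 CPM, Mid1 at 2.75 and Ntng2 at 1.10. Without Cd24a-rich cells in any library, the ratios of PD1 to control were -0.54 for Tspan7, -0.20 for Hmcn1, 0.06 for Mid1 and -0.01 for Ntng2.

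The tumour cells were next divided by 3 states that can overlap in a cell. These were a mesothelial-like state with at least 5 UMIs of Upk3b and Aldh1a1, a cycling state with at least 3 of Mki67, Top2a and Ube2c, and a state with at least 3 of Cxcl17, a mucosal chemokine. The mesothelial-like share was 66.4% in control, 86.2% in BTYNB, 64.9% in PD1 and 83.0% in combination. Cycling shares were 40%, 32.2%, 42.8% and 37.7%, and Cxcl17 shares 50.0%, 55.9%, 35.9% and 48.1%, at the unequal depths given before.

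The ratios stayed above 0 within each of these 3 states. In mesothelial-like cells the log2 ratio of BTYNB to control was 1.19 for Tspan7 (0.88 to 1.52), 0.86 for Hmcn1 (0.77 to 0.94), 0.99 for Mid1 (0.87 to 1.11) and 0.98 for Ntng2 (0.79 to 1.16). In cycling cells it was 1.51, 1.07, 1.46 and 1.26, and in Cxcl17 cells 1.95, 1.36, 1.64 and 1.76. For combination against PD1 the same 4 genes gave 1.65, 1.43, 0.96 and 1.08 in mesothelial-like cells, 1.72, 1.24, 1.35 and 0.98 in cycling cells, and 1.53, 2.22, 1.99 and 1.83 in Cxcl17 cells. In the cells of none of these states, the ratio of BTYNB to control for Tspan7 was 0.41, on 10 and 25 UMIs, and its interval (-0.81 to 1.52) includes 0. The other 7 ratios there were between 1.05 and 2.90. In Cd24a-rich cells the ratio of BTYNB to control for Mid1 was below 0, at -0.22 on 26 and 14 UMIs (-1.21 to 0.83). Hmcn1 gave 1.42 in those cells on 29 and 5 UMIs (0.04 to 3.15) and Ntng2 1.34 on 22 and 4 (-0.21 to 3.34). Tspan7 gave no ratio there, as control had 0 UMIs. For combination against PD1 in the Cd24a-rich cells, Hmcn1 gave 1.77 on 11 and 43 UMIs (0.67 to 2.75). Mid1 gave 1.42 on 7 and 35 (0.00 to 2.61) and Ntng2 2.74 on 7 and 14 (1.19 to 4.15). Weighting the states by their share in control gave log2 ratios of BTYNB to control of 0.89 for Hmcn1 and 1.03 for Ntng2, both below the intervals over all tumour cells (1.01 to 1.17 and 1.07 to 1.41).

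**Figure D3:**
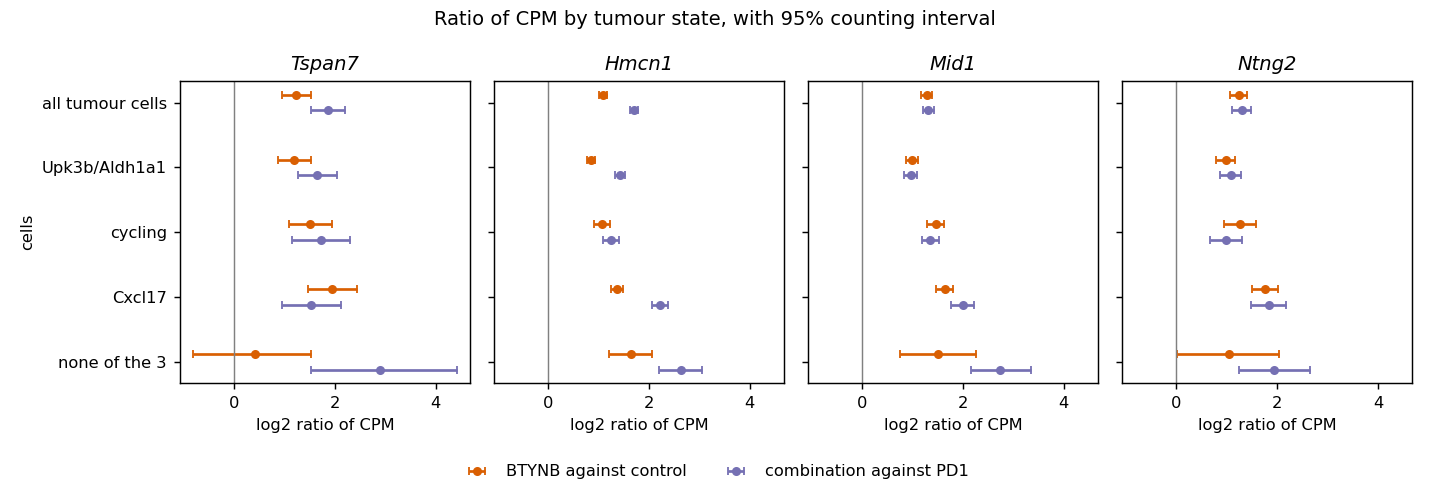
Log2 ratio of CPM within all tumour cells and within each tumour state, for BTYNB against control (orange) and combination against PD1 (purple), with 95% counting intervals. All ratios drawn are above 0, and the interval of Tspan7 in cells of none of the 3 states (0.41, -0.81 to 1.52) crosses it. Cd24a-rich cells are not drawn.

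Within a library the genes differed in where they were found. Hmcn1 was lower in cycling than in other tumour cells in every library, at 17.3 against 39.2 CPM in control, 36.4 against 78.0 in BTYNB, 17.0 against 25.9 in PD1 and 40.4 against 94.0 in combination. Ntng2 was also lower in cycling cells, by log2 differences between -1 in combination and -0.58 in PD1. Mid1 did not follow this, with log2 ratios of cycling to other cells of -0.16, 0.17, -0.01 and 0.05. In mesothelial-like cells Mid1 was at 17.4 CPM against 6.43 in the remaining control cells and at 16.0 against 5.64 in PD1. In the BTYNB-treated libraries the corresponding levels were 34.6 against 24.7 and 31.2 against 28.7 CPM, so cells outside the mesothelial-like state had the larger ratio. Hmcn1 showed the same order, with 15.5 CPM outside that state in control and 37.6 in BTYNB, and 10.5 in PD1 and 47.1 in combination.

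Because the libraries differ in depth, levels were also compared within bands of UMIs per cell. In control, Hmcn1 was at 55.2 CPM in cells under 8000 UMIs, 33.4 in cells with 8000 to 12000, 17.3 with 12000 to 20000 and 6.86 above that. In BTYNB the corresponding levels were 84.5, 87.1, 84.1 and 47.7 CPM. The log2 ratio of BTYNB to control for Hmcn1 was 0.61 (0.34 to 0.87), 1.38, 2.28 and 2.80 (2.29 to 3.36) from the shallowest to the deepest band. For Mid1 it was 1.33, 1.22, 1.80 and 2.39, and for Ntng2 1.52, 1.64, 2.10 and 1.97. Tspan7 gave -0.08 in the shallowest band, on 8 and 66 UMIs and with an interval of -1.35 to 0.98, then 1.13 (0.30 to 1.89) and 2.56 (2.07 to 3.08). Control had 0 Tspan7 UMIs in the deepest band. The size of each ratio thus depended on the band compared, while those of Hmcn1, Mid1 and Ntng2 were above 0 in every band. For combination against PD1 the 3 lower bands gave 1.61, 2.45 and 2.84 for Hmcn1 and 1.80, 2.72 and 2.41 for Tspan7. Mid1 gave 1.10, 1.68 and 1.95 there, and Ntng2 1.57, 1.59 and 1.66. The PD1 library had 3 cells over 20000 UMIs, too few for a level.

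**Figure D4:**
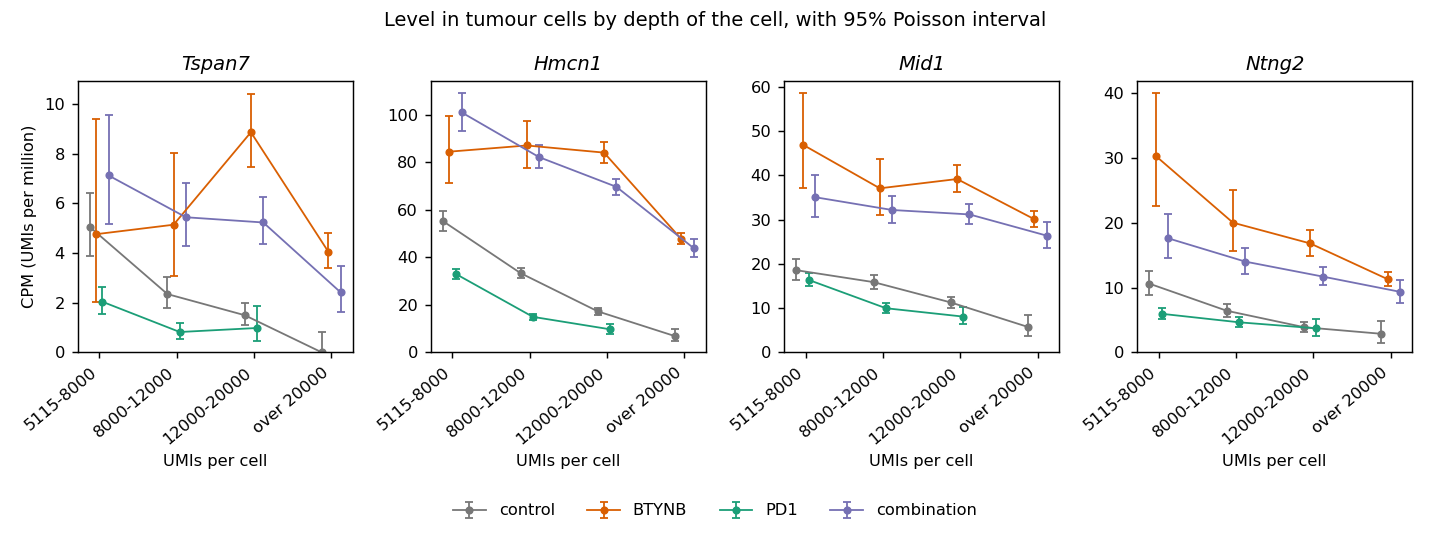
CPM of each gene in tumour cells grouped by UMIs per cell, for the 4 libraries, with exact 95% Poisson intervals; points from under 20 cells are not drawn. Hmcn1 falls from 55.2 to 6.86 CPM across the control bands and from 84.5 to 47.7 across the BTYNB bands.

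Tspan7, which had the fewest UMIs of the 4 genes, was gathered in few cells. The 1% of tumour cells richest in it held 74.4% of its UMIs in control, 52.1% in BTYNB and 57.9% in combination. The corresponding ranges over those 3 libraries were 9.13% to 14.9% for Hmcn1, 10.8% to 17.5% for Mid1 and 14.4% to 28.2% for Ntng2. In PD1 the share was 100% for Tspan7, since only 0.763% of cells had any UMI of it. Genes that were higher in tumour cells with a Tspan7 UMI than without, in every library, were led by Slpi, a secreted protease inhibitor, Col1a2 and Col1a1. Their log2 ratios ranged from 5.36 to 6.17, 4.81 to 6.41 and 4.79 to 5.90. A small set of gated cells had at least 5 UMIs of Col1a1 and Col1a2, a limit chosen after these genes had been seen. It held 67 control cells (0.981%), 40 BTYNB cells (1.42%), 62 PD1 cells (0.706%) and 75 combination cells (1.72%). Slpi was at 3432, 3151, 1727 and 2284 CPM in them, against 1.26 to 3.94 CPM in the remaining tumour cells. Bnc1, a transcription factor gene of mesothelium and other epithelia, was at 23.7 to 45.5 CPM, against 0.0138 to 0.0548 CPM. Krt18 was lower in the collagen-rich cells than in the remaining tumour cells, at 202 against 377 CPM in control, 237 against 457 in BTYNB, 581 against 699 in PD1 and 199 against 379 in combination. Cxcl17 was lower too, at 53.5 to 175 CPM against 276 to 345 CPM.

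In these collagen-rich cells Tspan7 was at 92.7 CPM in control (69.8 to 121), 57.8 in BTYNB (41.3 to 78.7), 24.4 in PD1 (12.6 to 42.7) and 50.6 in combination (37.2 to 67.3). The order of control and BTYNB was thus the opposite of that in all tumour cells, with a log2 ratio of -0.68 (-1.31 to -0.07). The set held 32.0% of the Tspan7 UMIs of control tumour cells, 13.0% in BTYNB, 12.2% in PD1 and 17.2% in combination. In the remaining tumour cells Tspan7 was at 1.60 CPM in control, 4.85 in BTYNB, 1.19 in PD1 and 4.12 in combination. The log2 ratios without the collagen-rich cells were 1.60 for BTYNB against control (1.28 to 1.92) and 1.80 for combination against PD1 (1.43 to 2.17). For Hmcn1, Mid1 and Ntng2 the set held at most 1.34% of the UMIs in any library.

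Genes with UMIs in the same cells were examined for the others too. Kcnd2, a potassium channel gene, was higher in cells with a UMI of Hmcn1 (log2 ratios of 1.30 to 1.72 over the libraries), Mid1 (1.06 to 1.22) and Ntng2 (0.57 to 0.97). Muc16, the CA125 mucin gene of mesothelium, was higher with Hmcn1 (1.19 to 1.44), as was the reticulon gene Rtn1 (1.18 to 1.64). For Mid1 the next genes were Aplp1, of the amyloid precursor family (0.84 to 1.40), and the ubiquitin-conjugating enzyme gene Ube2e2 (0.79 to 1.08). For Ntng2 they were the dynein adaptor gene Bicdl1 (0.57 to 0.81) and the semaphorin receptor gene Plxna4 (0.51 to 0.65). Depth was not matched between the cells with and without a UMI.

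In cells thinned to 5000 UMIs, at least 2 of the 4 genes were found in 2.47% of control cells (2.12 to 2.87), 7.75% of BTYNB (6.79 to 8.80), 1.40% of PD1 (1.17 to 1.67) and 7.14% of combination cells (6.40 to 7.95). None of the 4 was found in 78.5%, 61.7%, 82.4% and 62.7%. Since the genes were chosen to be high in the BTYNB-treated libraries, the order of the libraries in these shares is a description. Hmcn1 was found in 18.9% of control cells with Mid1 and 12.5% of those without, in 32.0% and 22.6% in BTYNB, in 14.5% and 9.87% in PD1, and in 33.3% and 22.8% in combination. In every library Hmcn1 was thus found more often beside Mid1, with separate intervals. For Mid1 in cells with and without Tspan7 the intervals overlapped in all 4 libraries. Hmcn1 was found in 22.4% of control cells with Tspan7 and 12.8% of those without, and in 30.4% and 23.7% in BTYNB. In PD1 the shares were 23.5% and 10.1%, and in combination 35.5% and 23.9%, with separate intervals in these 2 libraries.

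**Figure D5:**
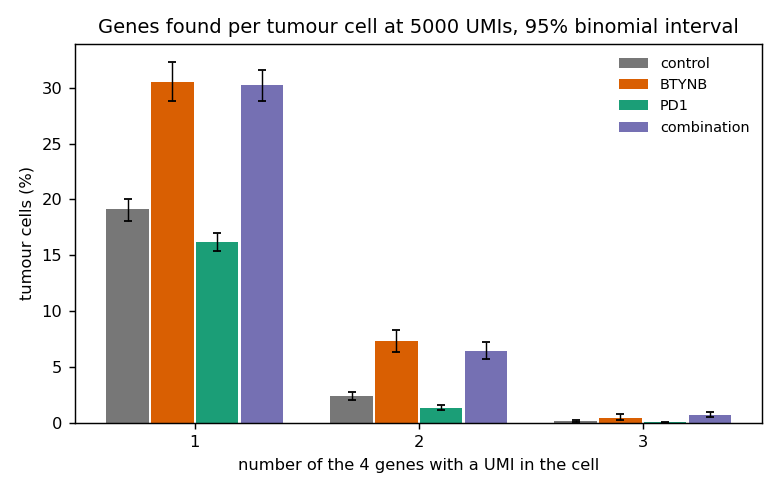
Share of tumour cells (percent) in which 1, 2 or 3 of the 4 genes had a UMI after each cell was thinned to 5000 UMIs, with exact 95% binomial intervals. The BTYNB and combination bars, at 30.5% and 30.2% for 1 gene and 7.29% and 6.43% for 2, are above those of control (19.1% and 2.36%) and PD1 (16.2% and 1.36%). The genes were chosen to be high in the BTYNB-treated libraries.

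Leukocytes, taken as cells with a Ptprc UMI and at most 2 keratin UMIs, gave a level beside that of tumour cells. There were 320 in control, 10771 in BTYNB, 348 in PD1 and 1851 in combination. Tspan7 was at 1.60 CPM in control leukocytes (0.329 to 4.66), 0.607 in BTYNB (0.385 to 0.911), 1.27 in PD1 (0.154 to 4.60) and 0.659 in combination (0.301 to 1.25). Hmcn1 was at 14.9, 22.4, 17.2 and 10.5 CPM, and Mid1 at 9.57, 17.7, 7.65 and 9.01 CPM. In BTYNB and combination these 3 genes were higher in tumour cells than in leukocytes, with separate intervals. Ntng2 was not: its leukocyte levels were 8.51 CPM (4.86 to 13.8), 14.1 (12.9 to 15.3), 5.10 (2.20 to 10) and 9.96 (8.36 to 11.8), which are near or above the tumour levels in control, BTYNB and PD1.

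The same comparison was made in leukocytes at the depth floor of the tumour gate. Before thinning, the BTYNB tumour cells, with a median of 18310 UMIs, were still deeper than these. In leukocytes of at least the tumour floor, with medians of 6086, 7490, 5762 and 6823 UMIs and thinned alike, the share with a Ntng2 UMI was 2.04% (0.559 to 5.14), 4.95% (4.06 to 5.96), 3.03% (0.369 to 10.5) and 4.43% (3.54 to 5.47). These intervals overlapped those of the tumour cells in all 4 libraries. The tumour intervals were 2.88 to 3.75, 5.82 to 7.71, 2.14 to 2.79 and 5.27 to 6.69. Overlap of 2 intervals does not show that the shares were alike. The tumour share was higher than the leukocyte share in control (3.29%), BTYNB (6.72%) and combination (5.95%), and lower in PD1 (2.45%). As a level, Ntng2 in the BTYNB leukocytes at the floor was 10.7 CPM (9.25 to 12.4), below the 14.0 CPM of tumour cells (13.0 to 15.0) with separate intervals, unlike the 14.1 CPM over all leukocytes, whose median was 2403 UMIs. Shares of Hmcn1 in these leukocytes were 6.12%, 3.58%, 4.55% and 4.32%, of Mid1 2.55%, 5.61%, 3.03% and 4.11%, and of Tspan7 1.02%, 0.236%, 1.52% and 0.216%. The intervals of Tspan7 detection overlapped between tumour cells and leukocytes in control and PD1, with 196 and 66 leukocytes, and were separate in BTYNB and combination. For Hmcn1 and Mid1 they overlapped in PD1 and were separate in the other 3 libraries. In BTYNB, Hmcn1 was at 30.6 CPM in B cells (26.5 to 35.2), 29.4 in T cells (25.2 to 34.1), 13.5 in macrophages and monocytes (11.6 to 15.6) and 22.3 in neutrophils (14.3 to 33.2), where median depths were 1964, 2182, 4733 and 1454 UMIs. The level was thus higher in the shallower lymphocytes than in macrophages, and in leukocytes at the tumour floor it was 10.4 CPM.

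Leukocyte RNA in the tumour gate was measured with Lyz2, a myeloid gene, which was at 15.7 CPM in control tumour cells, 17.5 in BTYNB, 39.5 in PD1 and 54.3 in combination, or 0.197%, 0.716%, 0.359% and 0.967% of its leukocyte level. At the same shares, leukocyte RNA would carry at most 0.775% of the level of any of the 4 genes in tumour cells. Measured with Ighm instead, the share was 4.14% of the leukocyte level in control, 1.29% in BTYNB, 3.67% in PD1 and 4.03% in combination. At these, at most 5.94%, 1.30%, 3.70% and 3.23% of the level of a gene would be carried. Igkc gave 0.979% in BTYNB and 3.5% in combination, but 21.8% in control and 14.0% in PD1. Control and PD1 leukocytes themselves had only 25.5 and 12.7 CPM of it. At those shares up to 31.3% and 14.1% of the Ntng2 level would be carried. Which gene stands for free leukocyte RNA in control and PD1 was not tested.

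Gene length and nuclear RNA were examined too, both after the data had been seen. Malat1, a nuclear noncoding RNA, was at 1850 CPM in control, 3172 in BTYNB, 1964 in PD1 and 3015 in combination tumour cells, and Kcnq1ot1, another, at 37.8, 63.3, 35.1 and 69.0 CPM. Neat1, at 164, 162, 201 and 197 CPM, was not higher in the BTYNB-treated library of either pair. On the GENCODE M21 annotation (GRCm38), Hmcn1 spans 431 kb, Mid1 321 kb, Tspan7 111 kb and Ntng2 58.5 kb. Over 302 genes longer than 300 kb the median log2 ratio of CPM + 1 was 0.20 for BTYNB against control and 0.45 for combination against PD1, and over 3130 genes shorter than 10 kb it was -0.04 and 0.03. The ratios of Hmcn1, 1.06 and 1.66 on this scale, and of Mid1, 1.22 and 1.25, were above those medians. Since these contrasts chose the genes, nothing is read from that. Of the 302 genes longer than 300 kb, 4 (1.32%) were at least 2-fold higher in both contrasts, beside 0.130% of all genes. The chosen genes were not left out, and Hmcn1 and Mid1 are both of this length and past 2-fold in both contrasts. The choice of the genes thus enters this share, and nothing is read from it. For genes under 10 kb, 10 to 30 kb, 30 to 100 kb and 100 to 300 kb the shares were 0.160%, 0.0241%, 0.139% and 0.0756%. The part of unspliced or nuclear RNA in these levels was not tested.

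Across the 4 libraries, the genes most like each of the 4 were those with the smallest root-mean-square difference of centred log2(CPM + 1). For Tspan7 these were Col1a1 (0.0469), the stress-response factor gene Atf3 (0.0501) and the noncoding RNA Halr1 (0.0542). For Hmcn1 they were 9330185C12Rik (0.0857), Ebf1 (0.110) and Fbxo2, a substrate receptor of a ubiquitin ligase (0.126). For Mid1 they were Pappa, a protease gene that frees insulin-like growth factor (0.0476), Ntng2 (0.0554) and Fbxo2 (0.0557). Those of Ntng2 were Pappa (0.0469), Mid1 (0.0554) and Garin4 (0.0586). With 4 values a gene, of which the BTYNB-treated were chosen to be high, this is a description.

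The families of the 4 genes are given beside all genes, of which 0.291% and 0.951% were at least 2-fold higher and 0.606% and 2.64% lower without and with anti-PD-1. At these shares, a count of 0 higher in a list of this size says nothing of the list. Of 24 other tetraspanin genes measured, 0 were at least 2-fold higher in either contrast, 1 was lower without anti-PD-1 and 4 with it, and the median log2 ratio was -0.13 for BTYNB against control and -0.16 for combination against PD1, beside 0.00 and 0.06 over all genes. Tspan13 was over 2-fold lower in both, at 67.1 CPM in control, 28.4 in BTYNB, 122 in PD1 and 32.5 in combination. The tetraspanins with most UMIs were Cd9 (log2 ratios of -0.73 and -1.13), Tspan8 (-0.24 and -0.71) and Cd81 (0.02 and -0.09). Of 24 other basement membrane and fibulin-family genes, 0 were at least 2-fold higher, 1 was lower without anti-PD-1 and 3 with it, and the medians were 0.27 and 0.17. Fbln2, a fibulin, had ratios of 0.65 and 0.45, Col4a1, a basement membrane collagen, 0.15 and 0.22, and Tinagl1, a matrix protein, 0.29 and -1.41.

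The 10 other genes of the midline family and its PP2A partners lay between -0.31 and 0.43 in both contrasts, with medians of 0.03 and 0.04. Ppp2ca, the catalytic subunit of PP2A, had ratios of 0.08 and 0.01, its scaffold Ppp2r1a 0.08 and 0.09, and the tubulin gene Tubb5 -0.31 and -0.16. Of 8 other netrins and netrin receptors, 0 were at least 2-fold higher, 1 was lower with anti-PD-1 (Ntn5, -1.35, named after its value was seen), and the medians were 0.33 and 0.27. The receptor gene Neo1 had ratios of 0.68 and 0.48, Unc5b 0.67 and -0.26, and the netrin gene Ntn4 -0.02 and 0.10. Ntng1, the closest relative of Ntng2, was under 100 UMIs in every library. So were the Ntng2 partner Lrrc4, the related gene Lrrc4b, and Mid2, the closest relative of Mid1.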

How the data were processed

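Cells of pooled ascites were captured on BD Rhapsody HT and 4 libraries were analysed, 1 per treatment. Per the study's methods, the authors counted UMIs with the BD Rhapsody Sequence Analysis Pipeline and deposited raw counts per gene symbol and cell; the labels name GRCm39, and the annotation is not given in the sources used here. Deposited totals ranged from 78603888 to 114600397 counts. The authors removed multiplets and low-quality cells in their own analysis, and whether the deposited matrices were filtered for multiplets is not stated.

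Matrices were joined over 29835 symbols. Cells with under 200 genes or over 33% mitochondrial UMIs (prefix mt-) were removed. Doublets were not called; cells with both keratin and Ptprc UMIs (272 to 725 per library) were left out of the tumour gate. UMIs were summed per library and gate and expressed as CPM. Each group is 1 library, so nothing was tested and p-values are not given. Intervals are exact at 95% (Poisson, Clopper-Pearson), except normal approximations for differences between ratios, and cover counting error only. The limit for a count of 0 is 3 counts. Ratios over all genes used log2(CPM + 1) for genes with at least 100 UMIs in 1 library. Shares of cells were taken after thinning each cell to 5000 UMIs. RefSeq promoters were searched on both strands; matches to different motifs were counted separately.

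The 4 genes, gene lists and tests were chosen with earlier results of these data known. Named besides the 4 genes were the neighbours in rank, the 3 most abundant genes of each family list and those past 2-fold in both BTYNB contrasts, the 3 most alike over libraries, and the 3 with the highest smallest ratio between cells with and without the gene, among genes with at least 50 UMIs on each side. B cell, collagen, Slpi and Bnc1 genes, Lyz2, S100a8, C1qa, C1qb, Dcn and the nuclear RNAs were named after their values were seen. There were 10 planned and 2 added alternatives for the ratios. Python 3.11.15 with numpy 2.4.6, pandas 2.3.3, scipy 1.17.1 and matplotlib 3.10.9 was used. Counting, ratios and thinning were tested on simulated data.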

Additional observations from a re-analysis of the deposited data

How the results depend on the processing

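The log2 ratios of the 4 genes in the 2 BTYNB contrasts were recomputed under 10 planned and 2 added alternatives, 94 values in all; Ntng2 gave no value with leukocyte levels subtracted, since its leukocyte level exceeded its tumour level in control, BTYNB and PD1. All 94 values were above 0, and 74 lay within the counting interval of the reported value. These contrasts chose the genes and every alternative used the same libraries, so nothing is drawn from the common sign. With cells of 8000 to 16000 UMIs only, the ratios of BTYNB to control were 2.12 for Tspan7, 1.68 for Hmcn1 and 1.76 for Ntng2, and those of combination to PD1 were 2.59 for Tspan7, 2.43 for Hmcn1, 1.71 for Mid1 and 1.51 for Ntng2. With no floor on UMIs, Hmcn1 gave 1.5 for combination against PD1. Without cells of at least 5 Cd24a UMIs, this contrast gave 1.49 for Hmcn1, 1.11 for Mid1 and 1.08 for Ntng2. With the state makeup of control, BTYNB against control gave 0.89 for Hmcn1 and 1.03 for Ntng2. With leukocyte levels subtracted, it gave 2.73 for Tspan7, 1.47 for Hmcn1 and 1.89 for Mid1, and combination against PD1 gave 5.97, 3.73 and 2.20. For Tspan7 little was left to divide by. In PD1 it was at 1.34 CPM in tumour cells and 1.27 CPM in leukocytes, the latter on 2 UMIs. In control these levels were 2.34 and 1.60 CPM, the latter on 3 UMIs. Without collagen-rich cells, Tspan7 gave 1.60 for BTYNB against control. The cause of the other shifts was not tested.

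In the other 2 contrasts, 4 of 94 values changed sign. Hmcn1 in combination against BTYNB was -0.21 with cells of 8000 to 16000 UMIs. Mid1 in PD1 against control was 0.06 without Cd24a-rich cells and 0.15 with leukocyte levels subtracted, and in combination against BTYNB 0.45 with that subtraction. The count of 17 genes at least 2-fold higher in both BTYNB contrasts was 11 among genes with at least 300 UMIs and 207 at a limit of 1.5-fold. A second random draw left all shares of thinned cells within their intervals. No paired analysis was possible because each group is 1 pooled library. Depth limits Tspan7 most, with 98 to 307 UMIs per library.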

Other observations

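Cells at or above the depth floor with neither 5 keratin or Wt1 UMIs nor a Ptprc UMI belonged to neither gate. There were 85 in control, 64 in BTYNB, 86 in PD1 and 125 in combination. Tspan7 was at 16.1 CPM in them in control (9 UMIs, interval 7.35 to 30.5) and 11.4 in PD1 (6 UMIs, 4.19 to 24.8). In BTYNB it had 0 UMIs (0 to 8.18), and in combination it was at 2.39 CPM (2 UMIs, 0.289 to 8.62). The intervals of control and PD1 each overlapped those of BTYNB and combination, so no order of the libraries is read from these few UMIs. Hmcn1 was at 17.9, 22.2, 30.4 and 16.7 CPM in the same cells, with overlapping intervals.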
